A study of Mus musculus with 8 samples.

Results

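The small leucine-rich proteoglycans (SLRPs) are secreted proteins that sit on collagen fibrils in connective tissue. The genes followed here are 8 members of the family, Dcn, Bgn, Lum, Fmod, Ogn, Aspn, Prelp and Omd. They were taken by gene symbol from the 24552 genes of the count table, whatever their values, and all 8 were present. RNA came from exorbital lacrimal glands (LGs), which make the aqueous part of tears, of female C57BL/6J mice. In the AL group 4 mice ate ad libitum, and in the CR group 4 mice were on a 40% calorie restriction started at 6 to 7 months of age and kept up for 4 months. All mice were 10 to 11 months old when the glands were taken. The labels name no engineered allele in either group. The study kept its diet cohorts at different sites, and the labels do not say which cohort gave a library, so a difference between sites was not tested. In a cohort of the study, CR mice also ate a chow with more vitamins and micronutrients than that of AL mice. They were fed daily, shortly before the dark phase. Where these differences applied, they cannot be told apart from the restriction of calories. Because each library comes from a whole gland, fewer cells of a type and less RNA per cell cannot be told apart.

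An SLRP protein consists of a curved row of leucine-rich repeats, preceded by a group of cysteines whose spacing divides the family into classes. Decorin, biglycan and asporin form class I, lumican, fibromodulin, PRELP and osteomodulin belong to class II, and osteoglycin belongs to class III. The proteins bind collagen and limit how fibrils thicken and fuse, and several of them carry chondroitin, dermatan or keratan sulfate chains and bind growth factors such as TGF-beta. In glands, as in other organs, fibroblasts of the stroma are their main known source.

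The codons of the cysteine group are shown because they separate the classes by which the results are ordered. The stretches were read from GENCODE vM21 transcripts (build GRCm38), and each lies within 1 coding exon. They run 5′ to 3′ on the coding strand, and the 4 cysteine codons are in capitals.
Dcn: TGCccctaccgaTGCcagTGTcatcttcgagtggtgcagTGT
Bgn: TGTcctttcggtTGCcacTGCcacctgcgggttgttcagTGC
Aspn: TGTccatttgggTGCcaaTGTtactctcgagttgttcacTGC
Lum: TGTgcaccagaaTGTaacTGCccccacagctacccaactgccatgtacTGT
Fmod: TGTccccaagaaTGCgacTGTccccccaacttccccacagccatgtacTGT
Prelp: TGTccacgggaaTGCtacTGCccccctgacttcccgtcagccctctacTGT
Omd: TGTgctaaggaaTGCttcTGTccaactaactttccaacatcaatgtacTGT
Ogn: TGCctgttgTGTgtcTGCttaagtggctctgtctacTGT
In Dcn, Bgn and Aspn the cysteine codons are separated by 3, 1 and 6 other codons. The last gap widens to 9 codons in Lum, Fmod, Prelp and Omd, and the first narrows to 2 in Ogn. The stretch of Dcn lies at chr10:97483507-97483548 (+), that of Bgn at chrX:73490979-73491020 (+) and that of Aspn at chr13:49551865-49551906 (+). Those of class II are at chr10:97568353-97568403 (+) for Lum, chr1:134040449-134040499 (+) for Fmod, chr1:133915151-133915201 (-) for Prelp and chr13:49589659-49589709 (+) for Omd. Ogn has its stretch at chr13:49615566-49615604 (+).

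Most of these genes are neighbours in the genome. Lum (chr10:97565128-97572703) starts 47.0 kb after the end of Dcn (chr10:97479609-97518143), and Kera and Epyc of the same family follow it. Aspn (chr13:49544443-49567565), Omd (chr13:49582462-49592822) and Ogn (chr13:49608046-49624501) lie in a row after Ecm2, with gaps of 14.9 kb and 15.2 kb between the 3 genes. Prelp (chr1:133910304-133921414) lies 115.8 kb from Fmod (chr1:134037254-134048277), while Bgn (chrX:73483602-73495933) has none of the family genes listed here within 500 kb. Aspn, Omd and Ogn lie within Cenpp on the other strand, and Prelp overlaps Gm15851 on the other strand. The strand setting of the counting is not given in the sources used here, so for these 4 genes reads of the partner cannot be told apart.

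Libraries held between 12051881 and 22156511 reads counted on genes, and levels are expressed in CPM, in which a count is divided by the size of its library after adjustment for composition. The method counts reads near the 3′ end, about 1 per transcript, so levels were not divided by gene length. A floor of 3 reads corresponds to between 0.152 and 0.231 CPM, and this floor covers counting error only. Lacrimal secretion genes were abundant in all libraries, with a summed level of 289457 to 366903 CPM in AL and 141223 to 339997 CPM in CR. Of these, 11 of the 13 tested were below 0, beside 48.9% of all genes, and 3 were called lower, beside 0.785% of all genes (Scgb2b7, Scgb1b7 and Esp3), with a median log2 fold change of -0.78. Transcripts abundant in the parotid gland, which lies beside the exorbital LG, summed to 13792 to 43264 CPM in AL and 56330 to 303983 CPM in CR. All 7 parotid transcripts tested had a fold change above 0, and 3 were called higher, beside 1.2% of all genes. Submandibular and sublingual transcripts had a summed level of 96.9 to 5013 CPM in AL and 5058 to 59233 CPM in CR. The median log2 fold change was 3.88 over 6 genes tested, of which 5 were above 0 and 1, Egf, was below 0 at -0.047, beside 48.9% of all genes below 0. Dcpp3 was called higher, beside 1.2% of all genes. General epithelial markers summed to 252 to 300 CPM in AL and 304 to 396 CPM in CR. The score, the mean log2 CPM of the parotid transcripts, was 2.84 to 7.06 in AL and 8.71 to 12.3 in CR, so it separates the diets fully and its effect and that of diet can hardly be told apart. All genes tested were also fitted with the parotid score of the library as a covariate. Results of that fit are given below for the members and 11 called genes of the collagen, sulfate, protease, ligand and fibroblast lists. They are not given for called genes of the other marker lists.

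Across the family, no member was a differentially expressed gene (DEG) between the diets. Calls were made with edgeR's quasi-likelihood F test and needed an adjusted p (Benjamini-Hochberg) under 0.05 together with a change of 1.5 times or more. Of the 7 members tested 0 were called, as were 0 by DESeq2 and 0 by limma voom. The background is 0.785% of all 11211 genes tested called lower in CR and 1.2% called higher. At an unadjusted p under 0.05 edgeR counted 1 member, Lum, lower in CR, against 8.1% of all genes tested. DESeq2 counted Lum and Ogn at that level, and limma voom counted Lum. The edgeR count was 4 without AL replicate 1 (Bgn, Lum, Ogn and Prelp), and 2 without AL replicate 2 (Lum and Prelp) or without CR replicate 2 (Lum and Ogn). With the replicate number as a block, or without the filter on low counts, it was 2 as well (Lum and Ogn). Of the 7 fold changes 5 were below 0, with a median log2 fold change of -0.70 beside 0.01 over all genes tested. In none of the 7 did every CR library lie below every AL library, which held for 5.2% of all genes tested. Omd was counted too rarely to pass the filter on low counts, and it was not called in the edgeR fit without that filter.

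**Figure D1:**
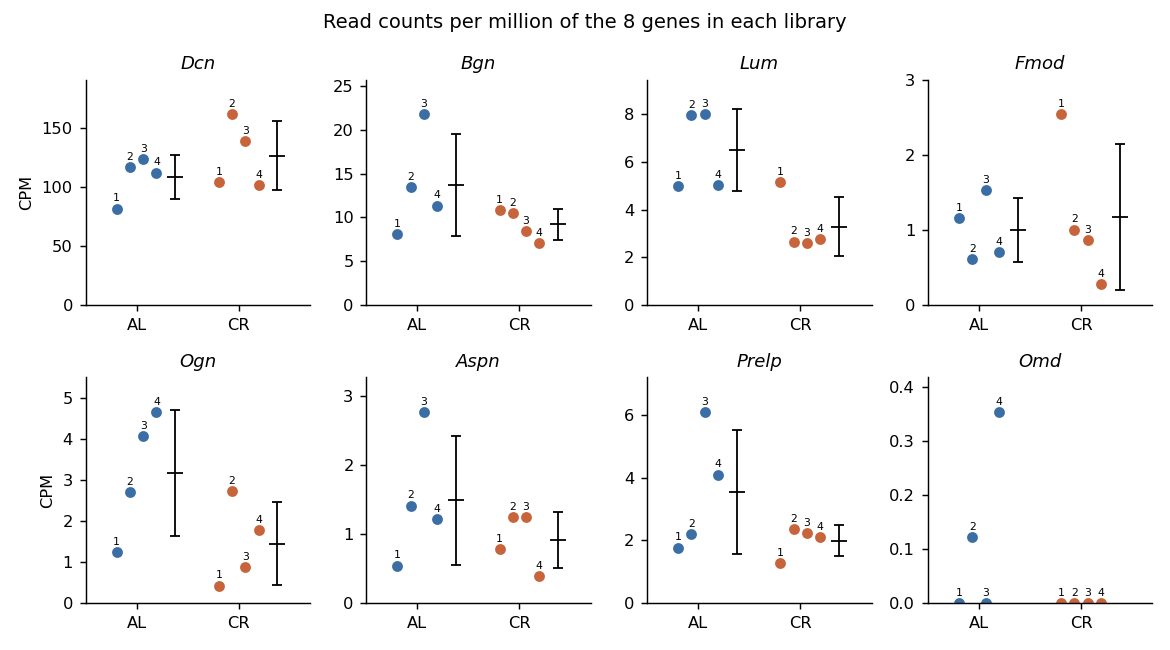
Level of each SLRP gene in CPM (vertical axes, from 0) in the 4 AL and 4 CR libraries, numbered by replicate, with the group mean and SD beside the points except for Omd. Groups overlap in every panel, and for Lum CR replicates 2 to 4 lie between 2.60 and 2.77 CPM, below all AL libraries.

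Dcn made up most of the family's reads in every library. It encodes decorin, which coats collagen fibrils and binds TGF-beta. Dcn (Gene ID 13179) had 82.0, 117, 124 and 112 CPM in AL libraries 1 to 4 and 104, 162, 139 and 102 CPM in CR libraries 1 to 4. CR replicates 2 and 3 were above every AL library, and CR replicates 1 and 4 lay within the AL range. The means were 109 ± 18.6 CPM in AL and 127 ± 29.0 CPM in CR (SD, n = 4 each). This was a log2 fold change of 0.22 (SE 0.207, 95% confidence interval -0.23 to 0.67), with an adjusted p of 0.663. In folds the interval runs from 0.853 to 1.59, so a fall of Dcn to below 0.853 of its AL level lies outside it, but once the parotid score entered the fit the lower end was 0.545. Its mean level exceeded that of 97.0% of the genes tested.

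Bgn, by contrast, averaged lower in CR. It encodes biglycan, the closest relative of decorin, which also acts as a signal to innate immune receptors when released from the matrix. Bgn (Gene ID 12111) had 8.08, 13.5, 21.8 and 11.4 CPM in AL libraries 1 to 4 and 10.8, 10.5, 8.41 and 7.05 CPM in CR libraries 1 to 4. All 4 CR libraries lay below the AL median, but AL replicate 1 was among the low libraries. The means were 13.7 ± 5.84 and 9.20 ± 1.79 CPM (SD, n = 4 each). Between the diets the log2 fold change was -0.57 (SE 0.287, interval -1.20 to 0.05) with an adjusted p of 0.350. Without AL replicate 3, the highest library, it was -0.26 (adjusted p of 0.710). The spread in AL, a coefficient of variation of 42.7%, was wider than that in CR, 19.5%.

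Aspn, the third gene of class I, encodes asporin, which carries a run of aspartates in place of a sulfated chain. Aspn (Gene ID 66695) was counted 7, 23, 38 and 24 times in AL libraries 1 to 4 and 11, 21, 20 and 7 times in CR libraries 1 to 4. This gave 0.539, 1.41, 2.77 and 1.22 CPM in AL and 0.777, 1.24, 1.24 and 0.388 CPM in CR. AL replicate 3 was high, and the other AL libraries overlapped with CR. Its log2 fold change was -0.70 (SE 0.579, interval -1.96 to 0.56), with an adjusted p of 0.611, and without AL replicate 3 it was -0.23. Without CR replicate 4 it was -0.44.

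Among the class II genes, Lum came nearest to the threshold. It encodes lumican, a keratan sulfate proteoglycan best known for keeping collagen fibrils thin and evenly spaced in the cornea. Lum (Gene ID 17022) had 5.003, 7.97, 8.01 and 5.02 CPM in AL libraries 1 to 4 and 5.16, 2.66, 2.60 and 2.77 CPM in CR libraries 1 to 4. CR replicates 2, 3 and 4 lay below every AL library, and CR replicate 1 lay just above the lowest AL libraries. The means were 6.50 ± 1.72 CPM in AL and 3.30 ± 1.24 CPM in CR (SD, n = 4 each). The log2 fold change was -0.98 (SE 0.317, interval -1.67 to -0.29) with an unadjusted p of 0.00906 and an adjusted p of 0.133 by edgeR. An exact permutation test of the CPM, two-sided, gave p = 0.0857, where the smallest p that 4 against 4 libraries allow is 0.0286. Without CR replicate 1 the log2 fold change of Lum was -1.27 with an edgeR adjusted p of 0.0764, and over all 16 alternatives the adjusted p ranged from 0.0696 to 0.434.

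Fmod and Prelp, with 132 and 356 reads in all, were counted less often than Lum with 614. Fmod encodes fibromodulin, which binds the same fibril sites as lumican and modulates collagen crosslinking. Fmod (Gene ID 14264) had 1.15, 0.613, 1.53 and 0.710 CPM in AL libraries 1 to 4 and 2.54, 1.01, 0.866 and 0.277 CPM in CR libraries 1 to 4. The highest and the lowest library were both CR, from 36 reads in replicate 1 and 5 reads in replicate 4. The log2 fold change was 0.22 (SE 0.637, interval -1.16 to 1.61), with an adjusted p of 0.913, and its sign turned without CR replicate 1 (-0.46). Prelp encodes a protein that links collagen to the heparan sulfate of basement membranes. Prelp (Gene ID 116847) had 1.77, 2.21, 6.11 and 4.11 CPM in AL libraries 1 to 4 and 1.27, 2.37, 2.23 and 2.11 CPM in CR libraries 1 to 4. AL replicates 3 and 4 stood above all other libraries, and AL replicates 1 and 2 lay among the CR libraries. The log2 fold change of Prelp was -0.83 (SE 0.428, interval -1.76 to 0.10) with an adjusted p of 0.367, and without AL replicate 3 it was -0.44.

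Omd, which encodes osteomodulin, an SLRP of bone and teeth, was at the edge of detection. Omd (Gene ID 27047) was counted 2 times in AL replicate 2, 7 times in AL replicate 4 and 0 times in the other 6 libraries. The level was 0.123 CPM in AL replicate 2 and 0.355 CPM in AL replicate 4, of which the latter exceeds the floor. A count of 0 allows up to 0.166 to 0.212 CPM in the CR libraries, so a difference between the diets was not detectable at this depth (exact permutation test, two-sided, p = 0.429).

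Ogn, the class III gene, had the lowest ratio of CR to AL among the members tested. It encodes osteoglycin, also called mimecan. Ogn (Gene ID 18295) had 1.23, 2.70, 4.08 and 4.66 CPM in AL libraries 1 to 4 and 0.424, 2.72, 0.866 and 1.77 CPM in CR libraries 1 to 4. CR replicates 1 and 3 lay below every AL library, while CR replicate 2 was above 2 of them. The means were 3.17 ± 1.53 and 1.45 ± 1.02 CPM (SD, n = 4 each). For Ogn the log2 fold change was -1.12 (SE 0.561, interval -2.34 to 0.10) with an adjusted p of 0.346, and in folds the interval reaches from 0.197 to 1.07. Ogn was no longer the lowest without CR replicate 1 (-0.82, Lum -1.27) or without AL replicate 4 (-0.87, Lum -1.09). Nor was it with the parotid score as a covariate (-0.54, Lum -1.43).

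**Figure D2:**
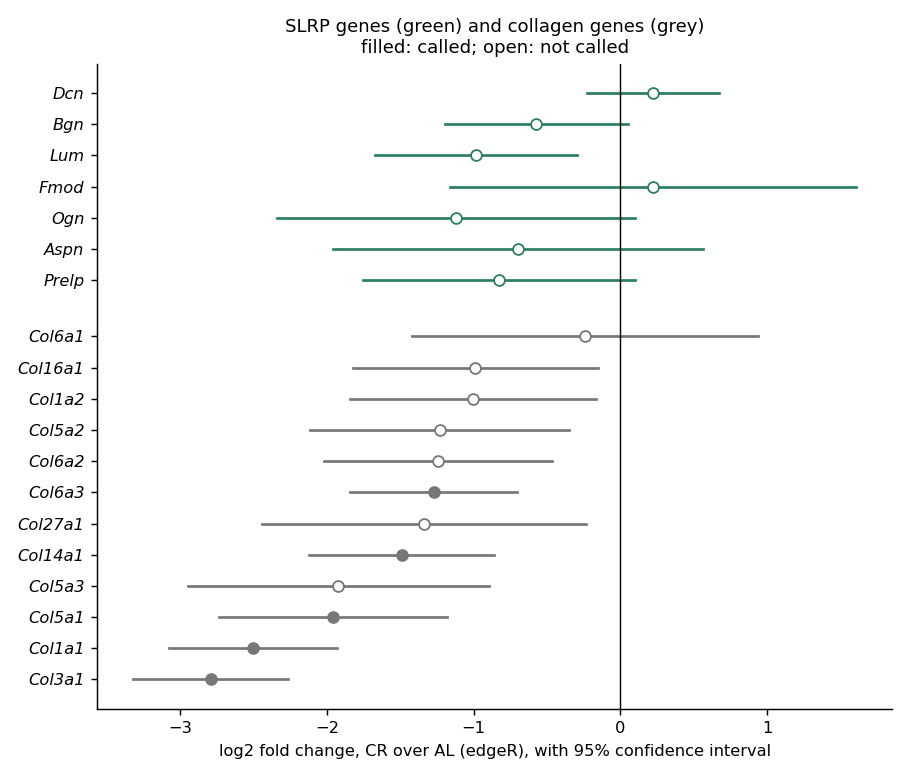
Log2 fold change of CR over AL (horizontal axis, points) with its 95% confidence interval (lines) for the 7 SLRP genes tested (green) and 12 collagen genes tested (grey), where filled points were called. All SLRP points are open, from -1.12 for Ogn to 0.22 for Dcn and Fmod, and the 5 filled points are collagens between -2.79 and -1.27.

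The order of the levels within the family was led by Dcn, Bgn and Lum in both diets. In AL the means were 109, 13.7, 6.50, 3.55, 3.17, 1.48, 1.001 and 0.119 CPM for Dcn, Bgn, Lum, Prelp, Ogn, Aspn, Fmod and Omd. The AL libraries of Dcn did not overlap with those of Bgn, nor those of Bgn with those of Lum. Lum, Prelp, Ogn and Aspn each overlapped with the next gene in that order, and Fmod lay above Omd. In CR the libraries of Dcn, Bgn, Lum and Prelp did not overlap with each other. Ogn, Fmod and Aspn overlapped with each other, and Prelp overlapped with Ogn and Fmod but lay above Aspn. These levels count reads near the 3′ end and were not corrected for how well each transcript end was captured.

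Dcn took 82.2, 80.4, 73.7 and 80.4% of the family's reads in AL libraries 1 to 4 and 83.3, 88.8, 89.6 and 87.6% in CR libraries 1 to 4. Each CR share was thus above each AL share, from a mean of 79.2% ± 3.73 to 87.3% ± 2.81 (SD, n = 4 each), with no test, since the shares of the members depend on each other. The summed level of the family was 99.7, 145, 168 and 140 CPM in AL and 125, 183, 155 and 116 CPM in CR. Without Dcn the other members summed to 17.8, 28.5, 44.3 and 27.4 CPM in AL and to 21.0, 20.5, 16.2 and 14.4 CPM in CR, where AL replicate 1 lies among the CR libraries.

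Whether 1 member moved away from another was tested on ratios within each library. Of 21 pairs of members 0 passed, and 0 had an unadjusted p under 0.05 (exact permutation tests, two-sided, adjusted over the 21 pairs). The smallest exact p was shared by Dcn to Lum and Dcn to Prelp. For Dcn to Lum the mean log2 ratio was 4.08 ± 0.272 in AL and 5.29 ± 0.708 in CR (SD, n = 4 each; exact p = 0.0571, adjusted p = 0.450), a difference of 1.21. Dcn to Prelp differed by 0.90 on the log2 scale with the same exact p of 0.0571. Dcn to Ogn differed more, by 1.47, but with a wider spread, 5.24 ± 0.627 in AL and 6.70 ± 1.01 in CR (SD, n = 4 each; exact p = 0.0857). The difference of Dcn to Bgn was 0.71 (exact p = 0.0857). With libraries of this number at least 13 of the 21 pairs would have to separate fully before any could pass the adjustment, so a count of 0 says little.

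Several of the collagens that SLRPs bind fell. Of 20 genes of fibrillar collagens and collagens on the fibril surface 12 were tested, all with a fold change below 0, and 5 were called lower in CR, beside 0.785% of all genes. The groups did not overlap in 8 of the 12, beside 5.2% of all genes, and the median log2 fold change was -1.31. Col3a1, the main chain of type III collagen, fell from 36.5 ± 9.72 to 5.27 ± 1.15 CPM (SD, n = 4 each; log2 fold change -2.79, SE 0.242, edgeR adjusted p = 0.000672). Col1a1 of type I collagen fell from 18.3 to 3.22 CPM (log2 fold change -2.504). Col5a1, whose product starts fibril assembly, Col14a1, which lies on the fibril surface, and Col6a3 of the beaded microfilaments had log2 fold changes of -1.96, -1.49 and -1.27. Only 2 of these collagens were called without AL replicate 2, AL replicate 3 or CR replicate 2, and 3 without CR replicate 1 or 3, and after the parotid score entered the fit 0 were called and 10 of the 12 were below 0. DESeq2 called 7 of the 12, limma voom 6, and edgeR 6 without CR replicate 4.

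Dcn was set against the collagens within each library. The log2 ratio of Dcn to Col3a1 was 1.42, 2.18, 1.48 and 1.32 in AL libraries 1 to 4 and 3.89, 5.11, 4.84 and 4.46 in CR libraries 1 to 4. All CR libraries were thus above all AL libraries, with a difference of 2.98. The ratio of Dcn to Col1a1 differed by 2.67, without overlap. Of the 12 ratios of Dcn to a collagen 9 did not overlap and reached the smallest exact p of 0.0286, and all 12 were higher in CR, by 0.44 to 2.98. The exceptions to the separation were Col16a1, Col1a2 and Col6a1. For Bgn 5 of 12 ratios did not overlap, for Lum and Prelp 3 each, for Fmod and Aspn 1 each and for Ogn 0. Over all 84 ratios of a member to a collagen the smallest adjusted p was 0.109, so none passed the adjustment, for which at least 49 ratios would have had to separate fully. These ratios were chosen after the data had been seen. Dcn itself was not called (log2 fold change 0.22), and all 12 collagens were below 0. The separations therefore largely restate the fall of the collagens and are no separate result about Dcn or the other members. How often ratios to other genes separate was not tested.

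**Figure D3:**
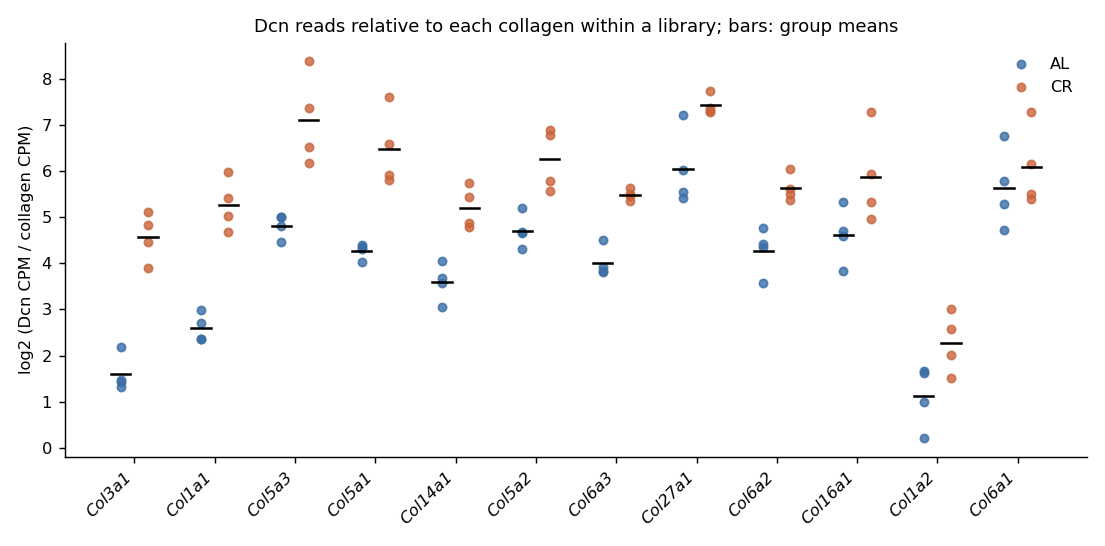
Log2 ratio of Dcn to each of 12 collagen genes (vertical axis) within each AL (blue) and CR (orange) library, with bars at the group means. The groups separate for 9 collagens, most widely for Col3a1 with a difference of 2.98, and overlap for Col16a1, Col1a2 and Col6a1.

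Markers of fibroblasts other than SLRPs and collagens had a lower summed level in every CR library than in every AL library. All 20 listed markers had counts, 15 of the 17 tested were below 0, beside 48.9% of all genes, and 1, Fbn1, was called, beside 0.785% of all genes (log2 fold change -1.60, edgeR adjusted p = 0.0208). Their median log2 fold change was -0.83, and their summed level was 231 to 367 CPM in AL and 184 to 212 CPM in CR. Bgn, Lum, Ogn, Aspn and Prelp averaged lower in CR as these markers did, while Dcn and Fmod averaged higher. The part of the fibroblast content in the members' values was not tested. Macrophage markers were below 0 in 9 of 10, beside 48.9% of all genes, and 1, Lyz2, was called lower, beside 0.785% of all genes. Their summed level was 105 to 275 CPM in AL and 64.1 to 118 CPM in CR, so these sums overlapped. Myoepithelial markers summed to 89.9 to 135 CPM in AL and 48.3 to 89.6 CPM in CR, and adipocyte markers to 14.2 to 24.6 CPM in AL and 29.1 to 109 CPM in CR. All 6 adipocyte markers tested were above 0. Of these 1, Fabp4, was called higher, beside 1.2% of all genes (log2 fold change 2.37, edgeR adjusted p = 0.0208). The 7 skeletal muscle markers tested were all above 0, with a median log2 fold change of 2.10 and 0 called by edgeR (3 at an unadjusted p under 0.05). Schwann cell markers summed to 34.7 to 47.9 CPM in AL and 45.4 to 116 CPM in CR. Of 6 tested, 4 were above 0 and 2 below, and 1 (Sox10) was called higher, beside 1.2% of all genes. The T cell and B cell markers, of which 2 each were tested, had median log2 fold changes of -1.31 and -1.56. The part of these cell types in the members' values was not tested either.

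With the parotid score as a covariate, Dcn had a log2 fold change of 0.09, Bgn of -1.13, Lum of -1.43 and Ogn of -0.54. Aspn stood at -1.53, Prelp at -0.52 and Fmod at -1.85, and the standard errors grew to between 0.443 and 1.34. In this edgeR fit 0 members were called, and 0 had an unadjusted p under 0.05. The 11 other genes that are described here as called from the collagen, sulfate, protease, ligand and fibroblast lists were not called in it either. Among them the log2 fold change of Col3a1 was -2.63 (adjusted p = 0.0993), that of Col1a1 -1.86 (0.225), that of Col5a1 -1.59 (0.422), that of Col14a1 -1.50 (0.366) and that of Col6a3 -1.12 (0.462). That of Mmp3 -1.79 (0.324), that of Adamts5 -2.71 (0.182), that of Htra1 -1.03 (0.493), that of Papss2 -0.71 (0.479) and that of Fbn1 -1.98 (0.286). Tgfb2 dropped to 0.31 (0.898).

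**Figure D4:**
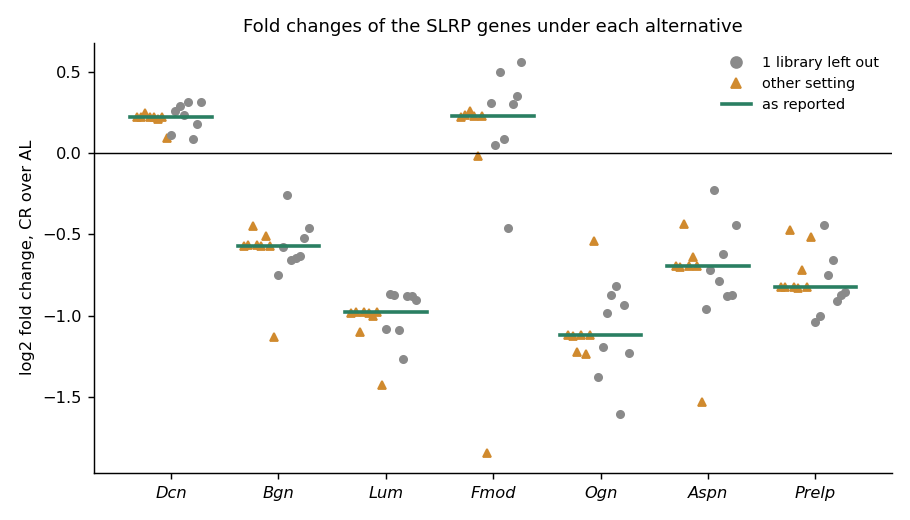
Log2 fold change of each SLRP gene (vertical axis) as reported (green line), with each library left out in turn (grey points) and under each other setting (orange triangles). Dcn stays above 0 at 0.09 to 0.31, Bgn, Lum, Ogn, Aspn and Prelp stay below 0, and Fmod lies on both sides.

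Other genes of the family were mostly near the floor. Of 10 further SLRP genes 4 were tested, 0 were called by edgeR, and 1 of the 4 had an unadjusted p under 0.05. This was Chad, which encodes chondroadherin, an SLRP of cartilage without a sulfated chain. Its mean level was 0.652 CPM in AL and 3.35 CPM in CR (log2 fold change 2.33, SE 0.580, edgeR adjusted p = 0.0630), with overlapping groups. Of the other cartilage and bone genes listed, Acan, Ibsp and Sp7 had no counts, and Col2a1, Comp and Matn3 had none in AL. Cnmd averaged 0.182 CPM in AL and 0.077 CPM in CR, and Alpl 0.874 and 0.528 CPM. Bglap averaged 0.300 and 1.31 CPM, with 5, 5, 7 and 0 reads in AL and 28, 27, 25 and 2 reads in CR. Sox9, at 184 CPM in AL and 239 CPM in CR, carried nearly all of the summed level of that list. Podn, for podocan, stood at 4.26 and 7.38 CPM (log2 fold change 0.79, adjusted p = 0.386) and Ecm2 at 1.43 and 0.845 CPM (-0.77, adjusted p = 0.577). Chadl had a log2 fold change of -0.34. Epyc, a class III gene next to Kera on chromosome 10, was too rare to pass the filter on low counts. It had 0.539, 1.41, 1.24 and 0.557 CPM in AL libraries 1 to 4 and 0.495, 0.177, 0 and 0 CPM in CR libraries 1 to 4. All CR libraries were below all AL libraries for Epyc, as for 5.2% of all genes tested, but AL replicate 1 and CR replicate 1 each had 7 reads and differ only through the library scaling. Kera, Optc, Podnl1 and Tsku averaged under 0.222 CPM in both diets, and Nyx had no counts.

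Of 26 genes tested that supply the sulfated chains of SLRPs 1 was called, lower in CR, beside 0.785% of all genes, and 3 were lower at an unadjusted p under 0.05, beside 8.1% of all genes. Of 6 linker enzymes, 10 chondroitin and dermatan sulfate enzymes and 3 keratan sulfate enzymes tested, 0 were called by edgeR, and 2 of them had an unadjusted p under 0.05. Chst1, which sulfates keratan chains, was abundant, at 618 CPM in AL and 467 CPM in CR (log2 fold change -0.40, adjusted p = 0.638). Among 7 genes for sulfate donors and tyrosine sulfation, Papss2, which makes the sulfate donor, fell from 115 to 58.2 CPM (log2 fold change -0.98, SE 0.201, edgeR adjusted p = 0.0334). Of 18 collagen crosslinking and folding genes 0 were called by edgeR and 1 had an unadjusted p under 0.05, with a median log2 fold change of -0.36.

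Proteases known to cut SLRPs or their neighbours in the matrix had a median log2 fold change of -1.22 over 11 genes tested, 3 of which were called lower, beside 0.785% of all genes. Mmp3, stromelysin, fell from 21.0 to 7.04 CPM (log2 fold change -1.57, edgeR adjusted p = 0.0326). Adamts5, an aggrecanase, fell from 6.71 to 2.29 CPM (-1.55) and Htra1, a serine protease that cuts decorin, from 7.92 to 3.02 CPM (-1.39). Mmp2 and Mmp14, by comparison, had log2 fold changes of 0.11 and -0.18. Among 16 receptors and ligands of SLRPs tested, Tgfb2, a ligand that decorin and biglycan bind, was called higher, beside 1.2% of all genes, with 6.72 CPM in AL and 41.5 CPM in CR (log2 fold change 2.63, edgeR adjusted p = 0.0197), although its groups overlapped. The 5 other extracellular proteoglycans tested, among them Agrn and Hspg2, were all below 0, and 0 were called or had an unadjusted p under 0.05 by edgeR.

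Each member's profile over the 8 libraries was compared with every gene tested, as the root mean square difference of centred log2 CPM. Dcn was nearest to Plod3 (0.122), Gcn1l1 (0.126) and Pde7a (0.132). Bgn was nearest to Lgals1 (0.185), Pcdh19 (0.189) and Zfp945 (0.205). Lum was nearest to Dab2 (0.199), Khdrbs3 (0.229) and Sp110 (0.236). Prelp was nearest to Fcgr3 (0.235), Lfng (0.248) and Tha1 (0.258). Aspn was nearest to Casp1 (0.236), Cat (0.353) and Tbc1d2b (0.357). Fmod was nearest to Tshz3 (0.318), Zpr1 (0.352) and Kank4 (0.359), and Ogn to Ebf1 (0.321), Cd8a (0.350) and Runx3 (0.423). Within the family the nearest pair was Bgn and Lum (0.411) and the most distant was Fmod and Ogn (1.61).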

How the data were processed

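Libraries from the 3′ ends of LG transcripts of 8 mice, 4 per diet, were sequenced. The authors worked on the ROSALIND platform with cutadapt for trimming, STAR for alignment to mm10 and HTSeq for counting, and deposited raw counts, whose totals were 12051881 to 22156511 per library. Tool versions are not given in the sources used here. The log2 values deposited beside them, scaled by DESeq2's RLE factors, were not used.

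The labels' diet gave the groups. After 5 repeated symbols were dropped, 11211 of 24552 genes passed edgeR's filterByExpr. Diets were compared in R 4.3.3 with edgeR 4.0.16 (RLE factors, quasi-likelihood F tests, Benjamini-Hochberg adjustment over all genes tested), and standard errors were obtained from the log2 fold change and F. Log2 CPM for ratios and profiles used a prior count of 0.5. Exact permutation tests used all 70 assignments of the libraries to diets. Alternatives were TMM factors, DESeq2 1.42.0, limma voom 3.58.1 with quality weights, no filter, a minimum of 10 counts in each library, calls by adjusted p alone, a replicate block, no 50 most counted genes, the parotid score (mean log2 CPM of 8 transcripts) as a covariate, leaving out each library, and a prior count of 2. The fit was tested on simulated data.

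Members and gene lists were chosen with earlier results of these data known. Genes could be named if they are members or other SLRP genes, called genes of the pathway lists (at most 12), among 3 further genes per list by mean CPM, among the 3 nearest profiles of a member, or markers of a list whose summed levels did not overlap. Not all that qualify are printed. Positions and sequences are from GENCODE vM21. The p-values measure the spread between the libraries of each diet.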

Additional observations from a re-analysis of the deposited data

Results flagged for a closer look

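Lum in the CR group was the 1 of 17 groups of 4 libraries examined (the members and their sum, in each diet) with a library far from the others. CR replicate 1 had 5.16 CPM, and its gap to the next library took 0.931 of the range of the group. Chance marks about 1 in 20 such groups. Without CR replicate 1 the log2 fold change of Lum was -1.27 in place of -0.98 (edgeR adjusted p = 0.0764 in place of 0.133).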

How the results depend on the processing

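The count of members called was 0 under all alternatives. Over all genes, the calls lower and higher in CR, 88 and 134 as reported, became 305 and 399 with DESeq2, 160 and 237 with limma voom, 165 and 271 without the filter on low counts, and 312 and 388 with the replicate block, under which 9 of the 12 collagens were called in place of 5. With the parotid score as a covariate they were 0 and 3 by edgeR, with 583 and 747 at an unadjusted p under 0.05. With 1 library left out they ranged from 25 (without CR replicate 2) to 247 (without CR replicate 4) lower and from 35 (without AL replicate 2) to 453 (without CR replicate 4) higher. Leaving out any library but AL replicate 4 moved these counts by more than 1.5 times. The cause of these shifts was not tested. The replicate numbers were not taken as pairs, since the correlations of same-numbered libraries, 0.13, 0.067, 0.218 and 0.429, were not all over 0.1. All were above 0, so this rule does not show that the libraries are unpaired. AL replicates 1, 2 and 4 correlated best with the CR library of their own number, AL replicate 3 with CR replicate 1 (0.285), and CR replicates 1 and 2 with AL replicates 3 and 4. The sign of Fmod reversed, from 0.22, with the replicate block (-0.017), with the parotid score (-1.85) and without CR replicate 1 (-0.46, in a range of -0.46 to 0.56 with 1 library left out). The other 6 members kept their direction under every alternative in which they were fitted. Fmod, Ogn and Aspn had fewer than 10 reads in at least 1 library and could not be fitted with that filter. The ratios past the threshold, among members and against collagens, were 0 with a prior count of 2 as well, which the small number of libraries nearly fixes. Omd, with 9 reads, did not pass the filter on low counts, and it was not called in the edgeR fit without that filter. The widest log2 intervals as reported were those of Fmod (-1.16 to 1.61), Aspn (-1.96 to 0.56) and Ogn (-2.34 to 0.10).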
